A study of Homo sapiens with 6 samples.

Results

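The HOX genes measured in spheroids of SW620 and SW480, human colorectal cancer cell lines derived from the same patient, were compared on Affymetrix whole-transcript arrays. Members were all features of the deposited value table whose platform gene symbol begins with HOXA, HOXB, HOXC or HOXD, or is HOTAIR or HOTTIP. This gave 36 features of 35 genes out of 14884 named genes, with the brightest feature standing for a gene. There were 5 members in the HOXA cluster, 11 in HOXB, 9 in HOXC and 10 in HOXD, and 27 of the 35 encode proteins. Of the protein-coding HOXA genes HOXA2 alone is described here, and the others, as well as HOXC5 and HOXC6, were not analysed here. SW620 was established from a lymph node metastasis and SW480 from the primary tumour, and both were grown as floating spheres in medium with growth factors and no serum. Each line has 3 arrays, which the design text calls technical replicates, so every standard error and p-value below measures the spread between such arrays and not between cultures. The labels name no treatment and no sorting of the cells. A lower signal in a culture of mixed cells may come from fewer expressing cells or from less RNA per cell, and these cannot be told apart.

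HOX genes encode homeodomain transcription factors that give cells their position along the head-to-tail axis of the embryo. They lie in 4 clusters, and within each the genes at the 3′ end (paralog group 1) act towards the head and those at the 5′ end (paralog group 13) towards the tail, hindgut and limb ends. Adult intestine keeps part of this code, Polycomb and trithorax complexes hold it off or on, and retinoic acid switches on the 3′ ends. Antisense and other long non-coding RNAs are transcribed between the coding genes, among them HOTAIR in the HOXC cluster and HOTTIP at the 5′ end of HOXA.

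Most HOX genes that differed between the lines were lower in SW620. In limma's moderated test with Benjamini-Hochberg adjustment over all 14884 genes, 17 of the 35 members were lower in SW620, 3 were higher and 15 did not pass an adjusted p of 0.05. The 20 calls are 57.1% of the members, beside a background of 35.6% of all genes, and the 17 lower calls are 48.6%, beside 19.5% of all genes. The median difference of the members, SW620 minus SW480, was -0.20 on the log2 scale, beside 0.013 over all genes. Only 3 members reached 2-fold (8.57%, beside 6.07% of all genes), all of them lower in SW620. They were HOXD13, HOXC4 and the non-coding HOXB-AS3. For 24 of the 35 members (68.6%) no array of one line overlapped the other, beside 45.7% of all genes. SW620 was lower in 18 of these 24 members, beside 3531 of the 6806 such genes in the whole table. The median over the members was 4.43, 4.44 and 4.34 on the SW620 arrays, against 4.65, 4.93 and 4.76 on the SW480 arrays. Array medians over all genes were lower in SW620 too, from 4.62 to 4.637, against 4.726 to 4.748 in SW480. A lower median on the SW620 arrays is thus not confined to the members. Against a minimum of 1.2-fold (limma's treat), 11 of the 20 calls stayed, 9 of them lower and 2 higher. In the same test 2465 of all 14884 genes passed, 1460 of them lower and 1005 higher. The calls lost were those of HOXA-AS3, HOXA11-AS, HOXB5, HOXB9, HOXB13, HOXC8, HOXC10, HOXD10 and HOXD11.

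Brightness bears on these shares, because dim features are called less often in this table. Among members brighter than the median feature of the array (4.065 on the log2 scale) 18 of 25 were called (72.0%), beside 49.8% of genes of that brightness, and 16 of the 25 were lower (64.0%), beside 27.4%. Brightness here is the mean over both lines, so a gene can enter through the line where it is higher. Of the 25 members 4 (HOXD4, HOXD9, HOXD11 and HOXD13) lay above the median feature in a single line, as did 658 of the 9475 brighter genes. Of the 10 dimmer members 2 were called (20.0%), beside 10.5% of dimmer genes. Means lay above the median feature in both lines for 21 members, below it in both for 7, and on opposite sides of it for the other 7. Background calls were not used here, so a member below the median feature may have no more than background signal.

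**Figure D1:**
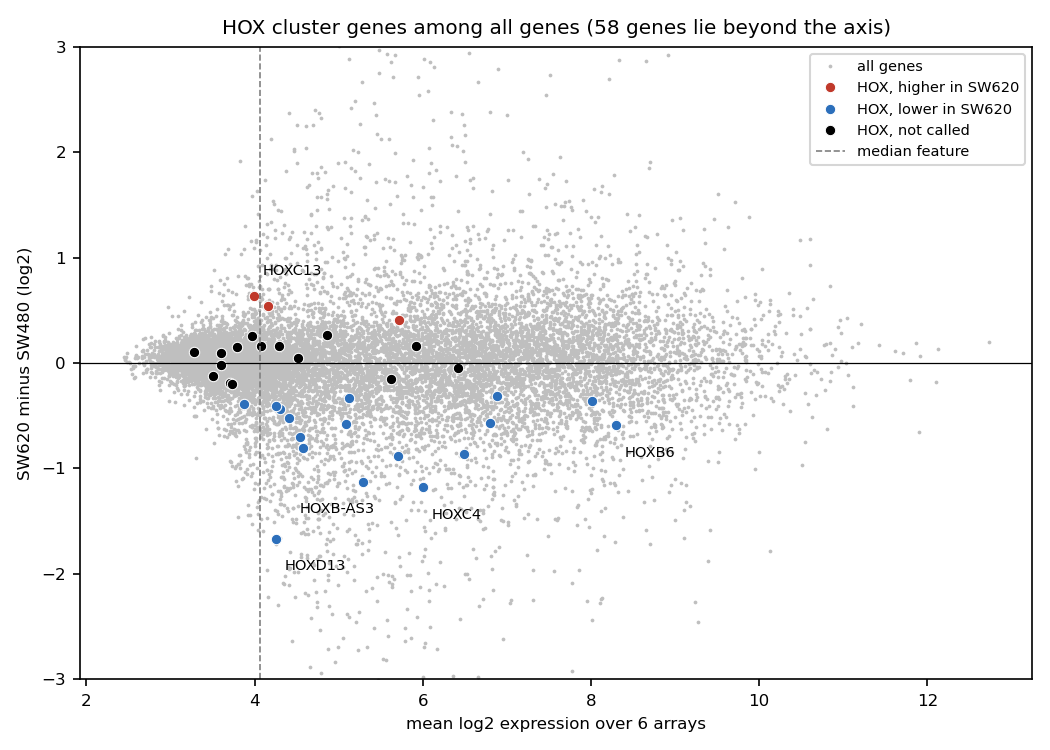
Each point is a gene, with its mean log2 expression over 6 arrays on the horizontal axis and its difference SW620 minus SW480 (log2) on the vertical axis, cut at 3 so that 58 genes lie beyond it. The coloured HOX members include 17 below 0 and 3 above 0, and most black points, the uncalled members, lie near the median feature (dashed line).

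The members with the largest differences were HOXD13, HOXC4 and HOXB-AS3, and RefSeq promoter windows of these genes show what sequence surrounds the start of each. Such windows, from 250 bases before a start to 50 after it on GRCh38.p14, were held by the table for 16 of the 35 members. Capitals mark TAAT, the core that homeodomains bind, and TTTAT, the core bound by caudal-type and posterior HOX factors, on both strands, and the marked stretches may overlap.
HOXD13 (chr2:176092471-176092770, plus strand): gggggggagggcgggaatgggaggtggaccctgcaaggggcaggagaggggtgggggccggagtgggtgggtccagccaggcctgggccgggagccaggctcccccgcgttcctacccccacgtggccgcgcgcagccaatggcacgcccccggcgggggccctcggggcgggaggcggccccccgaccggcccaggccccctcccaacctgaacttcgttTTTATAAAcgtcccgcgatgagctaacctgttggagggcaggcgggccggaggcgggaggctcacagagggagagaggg
HOXC4 (chr12:54016638-54016937, plus strand): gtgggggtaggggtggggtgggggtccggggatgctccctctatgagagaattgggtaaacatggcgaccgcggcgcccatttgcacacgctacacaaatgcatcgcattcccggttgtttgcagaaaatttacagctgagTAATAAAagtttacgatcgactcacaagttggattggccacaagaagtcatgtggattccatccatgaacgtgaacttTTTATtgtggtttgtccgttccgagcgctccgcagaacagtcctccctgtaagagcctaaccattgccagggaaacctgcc
HOXB-AS3 (chr17:48595708-48596007, plus strand): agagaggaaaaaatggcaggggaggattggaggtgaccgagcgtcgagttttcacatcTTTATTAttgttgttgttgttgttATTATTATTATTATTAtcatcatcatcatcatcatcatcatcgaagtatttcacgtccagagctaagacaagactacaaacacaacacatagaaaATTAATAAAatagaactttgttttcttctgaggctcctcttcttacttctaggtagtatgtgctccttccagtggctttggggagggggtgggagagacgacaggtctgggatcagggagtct
The HOXD13 window is rich in G and C (74.0%) with 24 CG pairs, the HOXC4 window holds 15 CG pairs and the HOXB-AS3 window 6, beside a median of 14 over 35093 promoters. HOXD13 has no TAAT and carries a TATA box sequence (TATAAA, either strand), which also gives its pair of overlapping TTTAT matches. TATAAA was found in 11.5% of all promoters and in 1 of the 16 HOX windows. HOXC4 holds TAAT 1 time and HOXB-AS3 8 times, most of them in a repeat of ATT, and TAAT occurs in 50.2% of all promoters and 11 of the 16 HOX windows. TTTAT occurs in 34.9% of all promoters and in 8 of the 16 HOX windows. The longer TGATNNAT, bound by HOX proteins together with PBX, was in 4 of the 16 HOX windows and 7.40% of all promoters, and in none of the 3 windows shown. A match is a description of the letters, and the data bear on no binding.

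HOXD13, which patterns digits and the end of the gut and urogenital tract, had log2 values of 3.27, 3.50 and 3.48 on the SW620 arrays, against 5.11, 4.93 and 5.21 on the SW480 arrays. Every SW620 array was thus far below every SW480 array, and the signal was 3.18-fold lower in SW620 (difference -1.67, standard error 0.10, limma adjusted p = 3.11e-08). Of all genes 186 had a difference lower than this. The SW620 mean, 3.42, lies below the 25th percentile feature (3.53), so the SW620 level is near the floor and the fold is uncertain.

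The rest of the HOXD cluster changed in both directions. HOXD10 and HOXD11, which pattern the forelimb and hindlimb with HOXD13, were 1.49-fold and 1.32-fold lower in SW620 (-0.58 and -0.40, standard errors 0.12 and 0.098, limma adjusted p = 0.00260 and 0.00560). HOXD10 had values of 4.67, 4.77 and 4.96 in SW620, against 5.14, 5.65 and 5.33 in SW480, and the arrays of the lines did not overlap. Their neighbour HOXD9 went the other way. It had values of 4.54, 4.45 and 4.29 in SW620, against 3.96, 3.84 and 3.85 in SW480, a 1.46-fold higher signal (0.54, standard error 0.092, limma adjusted p = 0.000404). The SW480 mean of HOXD9 and the SW620 mean of HOXD11 lie below the median feature.

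From HOXD8 towards the 3′ end no HOXD member passed. HAGLR, an antisense transcript outside the member rule whose annotated span overlaps HOXD1, was lower in SW620 (-0.75, limma adjusted p = 4.34e-05). Its SW620 mean lies below the median feature. HOXD8 differed by 0.26 (95% interval 0.036 to 0.48, limma adjusted p = 0.0695), and it passed without SW620 replicate 3 (0.36, adjusted p = 0.0148) and when arrays were centred on the 75th percentile feature (0.29, adjusted p = 0.0496). The differences of HOXD1, HOXD3, HOXD4 and the antisense HOXD-AS2 ran from -0.016 to 0.16, and both features of HOXD4 differed by 0.16. HOXD12, between HOXD13 and HOXD11, differed by -0.20 (interval -0.43 to 0.044), with overlapping arrays. Of the 10 HOXD members 3 were lower, 1 was higher and 6 were not called, near the 35.6% of all genes called. A single member, HOXD10, had means above the median feature in both lines. Levels of the dim members therefore carry little information.

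In the HOXB cluster 7 of 11 members were lower in SW620, none was higher and 4 were not called, and the median difference was -0.36. Means were above the median feature in both lines for 10 of the 11. Over all genes 19.5% were lower, and among genes brighter than the median feature 27.4% were. HOXB-AS3, a non-coding transcript that is known to encode a small peptide in colon cells, had values of 4.60, 4.70 and 4.88 in SW620, against 5.92, 5.88 and 5.76 in SW480. The groups did not overlap, and its signal was 2.18-fold lower (-1.13, standard error 0.095, limma adjusted p = 8.45e-07). Its annotated span overlaps HOXB5 and HOXB6. Per the labelling protocol sense-strand cDNA was hybridised, and which strand and exons each probe reads is not given in the sources used here.

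At the 3′ end, HOXB2 and HOXB3, factors of the hindbrain, were lower by nearly the same amount. HOXB2 had values of 5.07, 5.29 and 5.43 in SW620, against 6.06, 6.17 and 6.21 in SW480, a 1.85-fold lower signal (-0.88, standard error 0.10, limma adjusted p = 1.52e-05). HOXB3 had values of 6.06, 6.04 and 6.08 in SW620, against 6.95, 6.87 and 6.96 in SW480, or 1.82-fold lower (-0.87, standard error 0.080, limma adjusted p = 1.93e-06). Neither gene's arrays overlapped between the lines. HOXB1, beyond HOXB2 and dim in both lines, differed by -0.12 (interval -0.34 to 0.095). HOXB4, known for expanding blood stem cells, lies inside the annotated span of HOXB3 and pointed the other way. Its values were 5.08, 4.92 and 4.97 in SW620, against 4.35, 5.06 and 4.76 in SW480 (0.27, limma adjusted p = 0.174). SW480 replicate 2 alone reached the SW620 values, and without it the difference was 0.44 (adjusted p = 0.0177).

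Of the central HOXB genes HOXB5 and HOXB6 were lower in SW620, and HOXB7 and HOXB8 were not called. HOXB6 had values of 7.99, 7.88 and 8.14 in SW620, against 8.55, 8.62 and 8.60 in SW480, a 1.50-fold lower signal (-0.59, standard error 0.090, limma adjusted p = 0.000174). HOXB5, which acts in gut and lung development, was 1.24-fold lower (-0.31, standard error 0.084, limma adjusted p = 0.0106). HOXB7 and HOXB8 did not pass, with differences of -0.049 (interval -0.23 to 0.14) and 0.16 (interval -0.021 to 0.34). Towards the 5′ end, HOXB9 was 1.29-fold lower (-0.36, standard error 0.11, limma adjusted p = 0.0195). That call was lost without SW620 replicate 3 (-0.26, adjusted p = 0.0791), SW480 replicate 2 (-0.30, adjusted p = 0.0853) or SW480 replicate 3 (-0.35, adjusted p = 0.0571). HOXB13, a factor of the distal colon and prostate, had values of 4.12, 4.03 and 4.10 in SW620, against 4.57, 4.49 and 4.50 in SW480 (1.35-fold lower, -0.44, standard error 0.081, limma adjusted p = 0.000803). Its SW620 mean, 4.08, is close to the median feature.

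**Figure D2:**
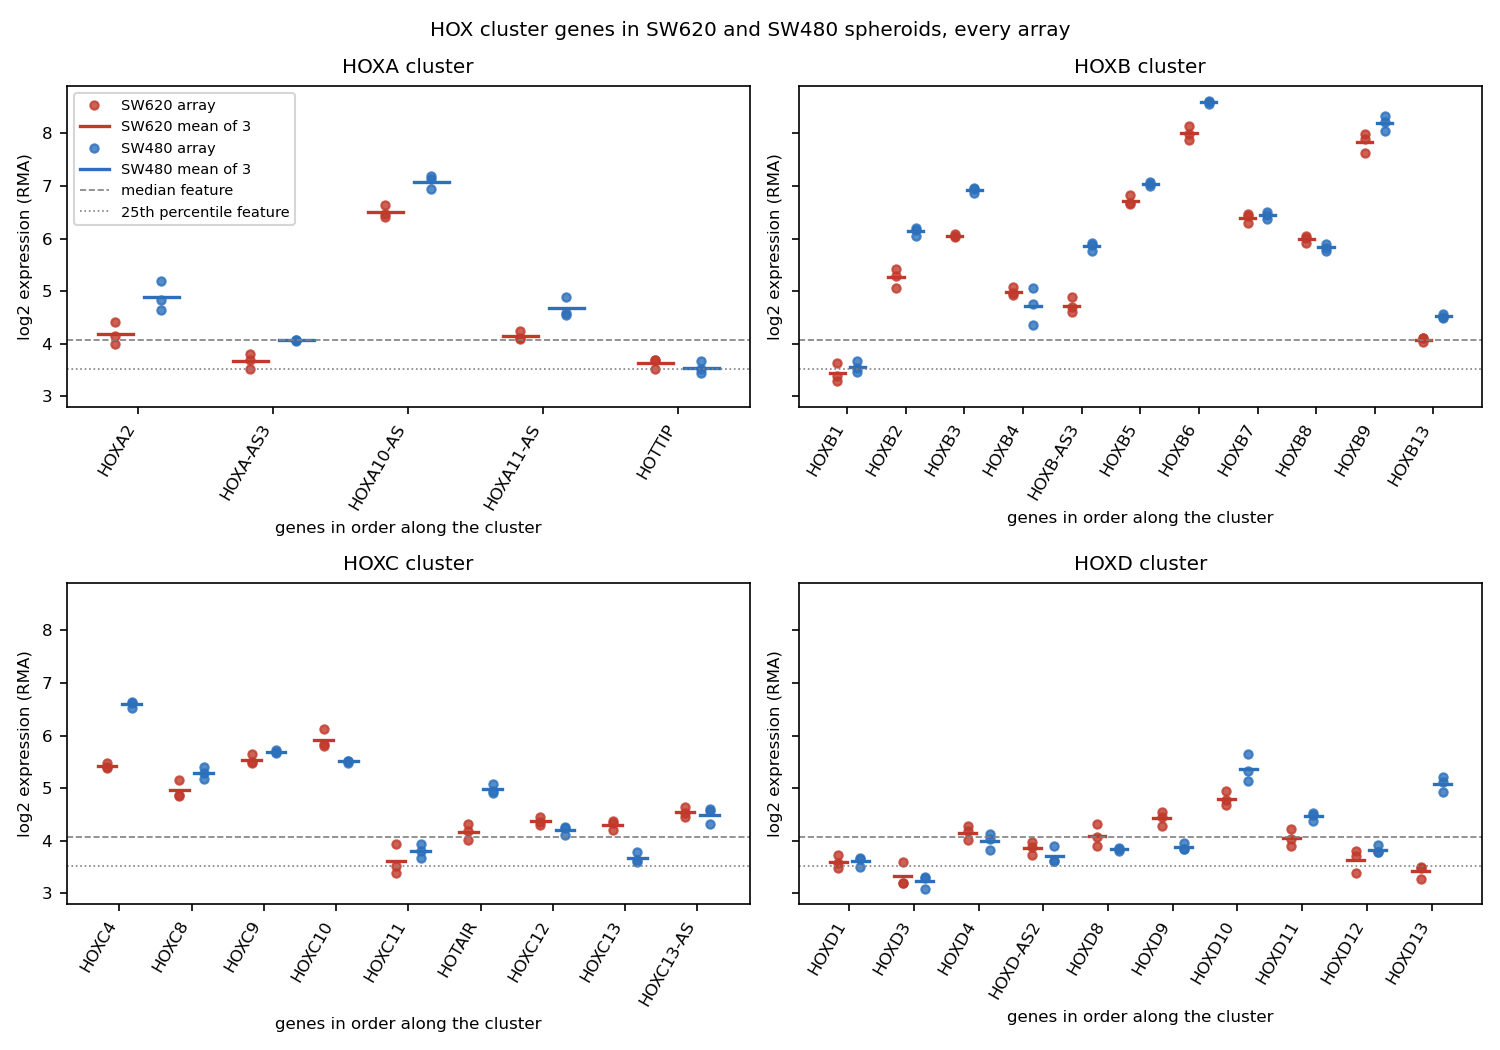
Log2 expression (vertical axis) of the 35 HOX members in order along each cluster from the 3′ end (horizontal axis), with a point for each array, a bar for the mean of 3 arrays, SW620 left of SW480, and dashed and dotted lines at the median and 25th percentile feature. The 3 arrays of a line sit close together for HOXB3, HOXC4 and HOXD13, with SW620 below SW480, and levels of different genes are not comparable because probes differ.

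The HOXC cluster held the second largest difference of all members as well as calls in opposite directions. HOXC4 had values of 5.40, 5.47 and 5.38 in SW620, against 6.62, 6.64 and 6.53 in SW480. No SW620 array came near an SW480 array, and the signal was 2.27-fold lower in SW620 (-1.18, standard error 0.082, limma adjusted p = 1.22e-07), with 402 of all genes having a lower difference. The annotated span of HOXC4 holds HOXC5 and HOXC6, which share its distal start, and which of their transcripts the feature reads was not tested. HOTAIR, a non-coding RNA known for recruiting Polycomb complexes to HOXD in human fibroblasts, had values of 4.31, 4.18 and 4.01 in SW620, against 4.91, 5.08 and 4.95 in SW480. The groups did not overlap, and HOTAIR was 1.75-fold lower (-0.81, standard error 0.096, limma adjusted p = 2.04e-05). HOXC11, whose span overlaps HOTAIR, differed by -0.19 (interval -0.48 to 0.091) and lay below the median feature in both lines. Without SW620 replicate 2 it passed (-0.35, adjusted p = 0.0274).

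The HOXC members higher in SW620 were HOXC13 and HOXC10. HOXC13, which drives hair and nail keratins, had values of 4.20, 4.38 and 4.34 in SW620, against 3.78, 3.64 and 3.59 in SW480. These arrays did not overlap, and the signal was 1.55-fold higher in SW620 (0.64, standard error 0.090, limma adjusted p = 9.65e-05), from an SW480 mean below the median feature. HOXC10 had values of 6.12, 5.83 and 5.80 in SW620, against 5.52, 5.52 and 5.49 in SW480, a 1.33-fold higher signal (0.41, standard error 0.097, limma adjusted p = 0.00475). That call was lost against a minimum of 1.2-fold (limma's treat, adjusted p = 0.343). The antisense transcript HOXC13-AS, which overlaps HOXC13, differed by 0.046 (interval -0.17 to 0.26), and HOXC12 by 0.16 (interval -0.028 to 0.35). HOXC9 differed by -0.15 (interval -0.34 to 0.030). HOXC8 was 1.26-fold lower (-0.33, standard error 0.10, limma adjusted p = 0.0207). Its call was lost without SW620 replicate 1 (adjusted p = 0.0793) or 3 (0.0684) and without SW480 replicate 1 (0.0805) or 2 (0.0548). Of the 9 HOXC members 2 were higher, 3 lower and 4 not called, beside 35.6% of all genes and 49.8% of brighter genes called.

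In the HOXA cluster 4 of the 5 members analysed were lower in SW620, beside 19.5% of all genes. They were HOXA2, the only coding member analysed, and 3 antisense transcripts. HOXA2, which patterns the hindbrain and the second pharyngeal arch, had values of 4.43, 4.15 and 3.99 in SW620, against 4.65, 5.19 and 4.84 in SW480. The lines did not overlap, although the spread within each was wide, and the signal was 1.62-fold lower (-0.70, standard error 0.14, limma adjusted p = 0.00138). HOXA10-AS, an antisense transcript of HOXA10, had values of 6.47, 6.65 and 6.42 in SW620, against 7.19, 6.94 and 7.13 in SW480, or 1.49-fold lower (-0.57, standard error 0.098, limma adjusted p = 0.000432). HOXA11-AS and HOXA-AS3 were 1.44-fold and 1.31-fold lower (-0.52 and -0.39, limma adjusted p = 0.00152 and 0.00432), and the SW620 mean of HOXA-AS3 lay below the median feature. HOTTIP, a non-coding RNA known for keeping 5′ HOXA genes active through WDR5, was below the median feature in both lines and differed by 0.091 (interval -0.11 to 0.29).

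**Figure D3:**
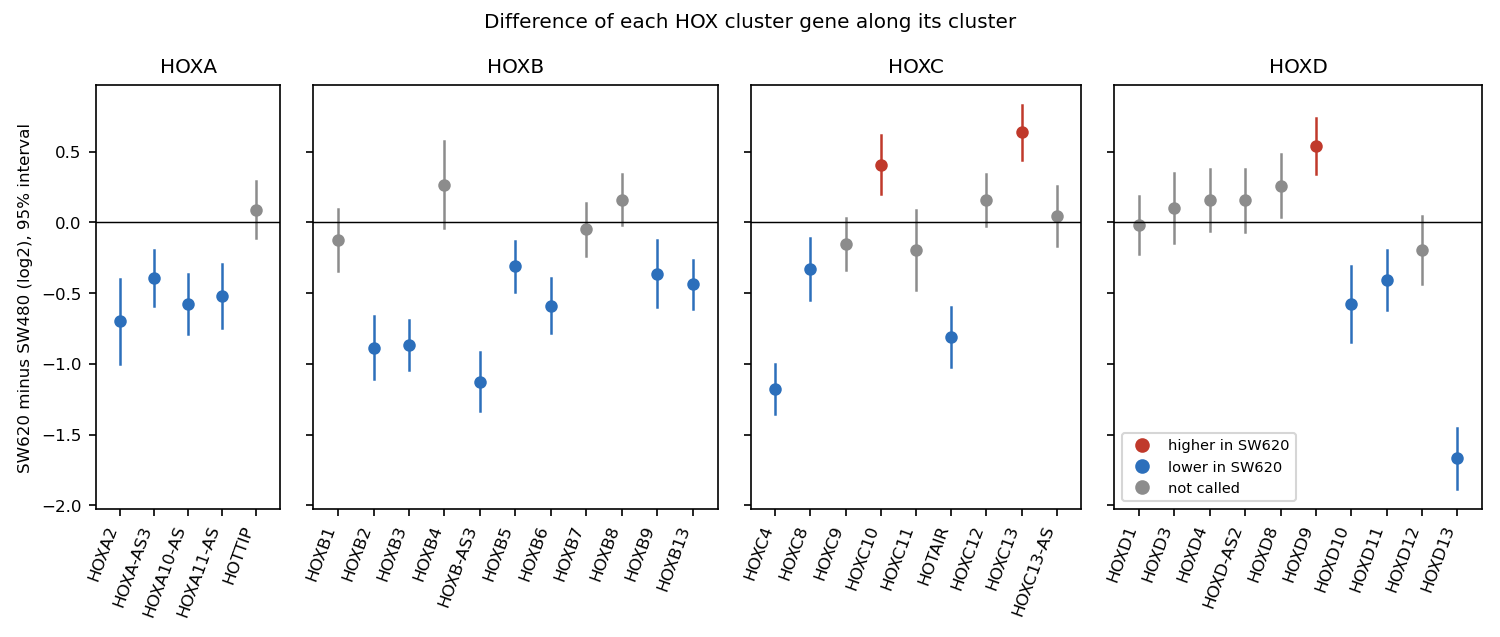
The difference SW620 minus SW480 (log2, vertical axis) with its 95% interval is drawn for each of the 35 HOX members in order along the cluster from the 3′ end. HOXD13 is lowest at -1.67, the HOXA and HOXB panels hold no member called higher, and HOXC10, HOXC13 and HOXD9 are the 3 called higher.

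Among the coding members 12 of 27 were lower and 3 higher, and among the antisense and other non-coding members 5 of 8 were lower and 0 higher. By position, paralog groups 1 to 4 had 4 of 9 lower and 0 higher, groups 5 to 8 had 3 of 6 lower and 0 higher, and groups 9 to 13 had 5 of 12 lower and 3 higher, beside 19.5% lower and 16.0% higher over all genes. At 16.0%, having 0 higher among so few genes is near the background. The 3 members higher in SW620 thus belong to groups 9, 10 and 13. Paralogs of the same group did not go together there. In group 13, HOXC13 differed by 0.64 (interval 0.44 to 0.83), HOXB13 by -0.44 (interval -0.61 to -0.26) and HOXD13 by -1.67 (interval -1.89 to -1.45). In group 10, HOXC10 differed by 0.41 (interval 0.20 to 0.62) and HOXD10 by -0.58 (interval -0.85 to -0.31). In group 9, HOXD9 differed by 0.54 (interval 0.34 to 0.74) and HOXB9 by -0.36 (interval -0.60 to -0.13). HOXC9, also of group 9, differed by -0.15 (interval -0.34 to 0.030) and was not called. Against a minimum of 1.2-fold the calls of HOXB9, HOXB13, HOXC10 and HOXD10 were lost. These counts describe a few genes per group, and differences between positions or paralogs were not tested.

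MicroRNA genes lie in the clusters too, and the miR-196 family is encoded in 3 of them, with HOX messenger RNAs, HOXB8 above all, among its known targets. RefSeq's mature 5p sequences (GRCh38.p14, seed bases 2 to 8 in capitals) show that the family shares its seed.
miR-196b-5p (MIR196B, chr7:27169528-27169549, minus strand, HOXA cluster): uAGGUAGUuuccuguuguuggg
miR-196a-5p (MIR196A1, chr17:48632532-48632553, minus strand, HOXB cluster; MIR196A2, chr12:53991762-53991783, plus strand, HOXC cluster): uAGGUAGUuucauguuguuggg
The feature of MIR196B, which lies within the annotated span of HOXA10-AS, averaged 7.47 ± 0.079 in SW620 and 7.80 ± 0.059 in SW480 (mean ± SD, n = 3 each), or 1.25-fold lower (-0.32, standard error 0.084, limma adjusted p = 0.00873). MIR196A1 averaged 4.69 ± 0.19 in SW620 and 4.97 ± 0.19 in SW480 (limma adjusted p = 0.0895, n = 3 each), and MIR196A2 was below the 25th percentile feature in both lines. HOXB8, described above, was not called. Whole-transcript arrays read precursors or host transcripts, so these values say nothing of the mature miRNA. Of 15 measured transcripts in a list of others inside or beside the clusters, 4 were lower, 1 was higher and 10 were not called. This is close to the 35.6% of all genes called, and 2 calls were left against 1.2-fold. HAGLR, the antisense transcript whose annotated span overlaps HOXD1, was 1.68-fold lower (-0.75, limma adjusted p = 4.34e-05) and below the median feature in SW620.

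Genes linked to the HOX clusters were counted in 9 lists, of which those with a named feature are called measured. Their calls are read beside the 35.6% of all genes called (19.5% lower and 16.0% higher) and the 49.8% called among genes brighter than the median feature. HOX proteins bind DNA with TALE homeodomain partners, and 2 of 8 measured TALE genes were called, not far from 35.6% for so few genes. Both were lower in SW620 (list median -0.083, beside 0.013 over all genes). They were PBX3 and PBX4, partners of HOX proteins. PBX3 averaged 4.24 ± 0.16 in SW620 and 5.57 ± 0.18 in SW480 (n = 3 each), or 2.53-fold lower (-1.34, limma adjusted p = 7.44e-07), and PBX4 was 2.42-fold lower (-1.27, limma adjusted p = 4.24e-08). MEIS1, MEIS2, MEIS3, PBX2, PKNOX1 and TGIF1 were not called. Of 13 measured homeobox genes outside the 4 clusters but related to them, 1 was higher, 2 were lower and 10 were not called (median -0.059). These calls too are not far from 35.6% for so few genes. MEOX2, a mesoderm factor, averaged 5.64 ± 0.030 in SW620 and 3.38 ± 0.11 in SW480 (n = 3 each), or 4.80-fold higher (2.26, limma adjusted p = 4.26e-10), from an SW480 level below the 25th percentile feature. The lower ones were PDX1 (1.27-fold) and CDX2 (2.90-fold, -1.54), an activator of HOX genes in the gut.

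The lists of chromatin regulators held calls in both directions, and all their measured genes lay above the median feature in both lines, where 49.8% of genes were called. In Polycomb repressive complex 2, which marks silent HOX genes, 4 of 10 measured genes were higher and 2 lower (median 0.053). This is close to that share, and 2 calls were left against 1.2-fold. PHF19 was 1.52-fold, the methyltransferase EZH2 1.37-fold and RBBP4 1.33-fold higher, and EZH1 was 1.59-fold lower. In Polycomb repressive complex 1, 2 of 15 were higher and 3 lower (median -0.17), below that share, and the RING1 partners PCGF5 and PCGF2 were 2.91-fold and 2.23-fold lower. The calls of PHC1 (-0.35, with -0.20 and no call in its other feature), lower, and of PCGF3 and SCMH1 (both 0.34), higher, make up the 5. That number fell to 3 without SW620 replicate 1 or SW480 replicate 1, and to 2 against 1.2-fold. In the trithorax and COMPASS list 3 of 13 were higher and 4 lower (median 0.12), close to that share and with 1 call left against 1.2-fold, with DPY30 1.59-fold, KMT2B 1.37-fold and WDR5 1.34-fold lower and the H3K27 demethylase KDM6B 1.34-fold higher. Of 9 measured CTCF and cohesin genes, which shape loops at the clusters, 5 were higher and 1 lower (median 0.29), beside the same 49.8%. CTCF was 1.75-fold, NIPBL 1.62-fold and WAPL 1.43-fold higher, and STAG1 was 1.65-fold lower.

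Of 18 listed retinoic acid genes 4 had a named feature, and all 4 were called, beside 35.6% of all genes, while the other genes were not analysed here. CRABP2, which carries retinoic acid to its receptor, averaged 4.94 ± 0.094 in SW620 and 7.20 ± 0.092 in SW480 (n = 3 each), or 4.78-fold lower (-2.26, limma adjusted p = 5.42e-10). STRA6, the retinol uptake receptor, and DHRS3, a retinal reductase, were 2.47-fold and 1.85-fold lower, while RDH10, which makes retinal, was 2.47-fold higher. In a list of proteins that bind HOX factors or their cofactors, 2 of 6 were higher and 1 lower (median 0.19), close to the 49.8% of brighter genes. They were EP300 (1.26-fold higher), SMAD1 (1.28-fold higher) and HMGB1 (1.47-fold lower), and 1 call was left against 1.2-fold. Part of any of these in the HOX differences was not tested.

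**Figure D4:**
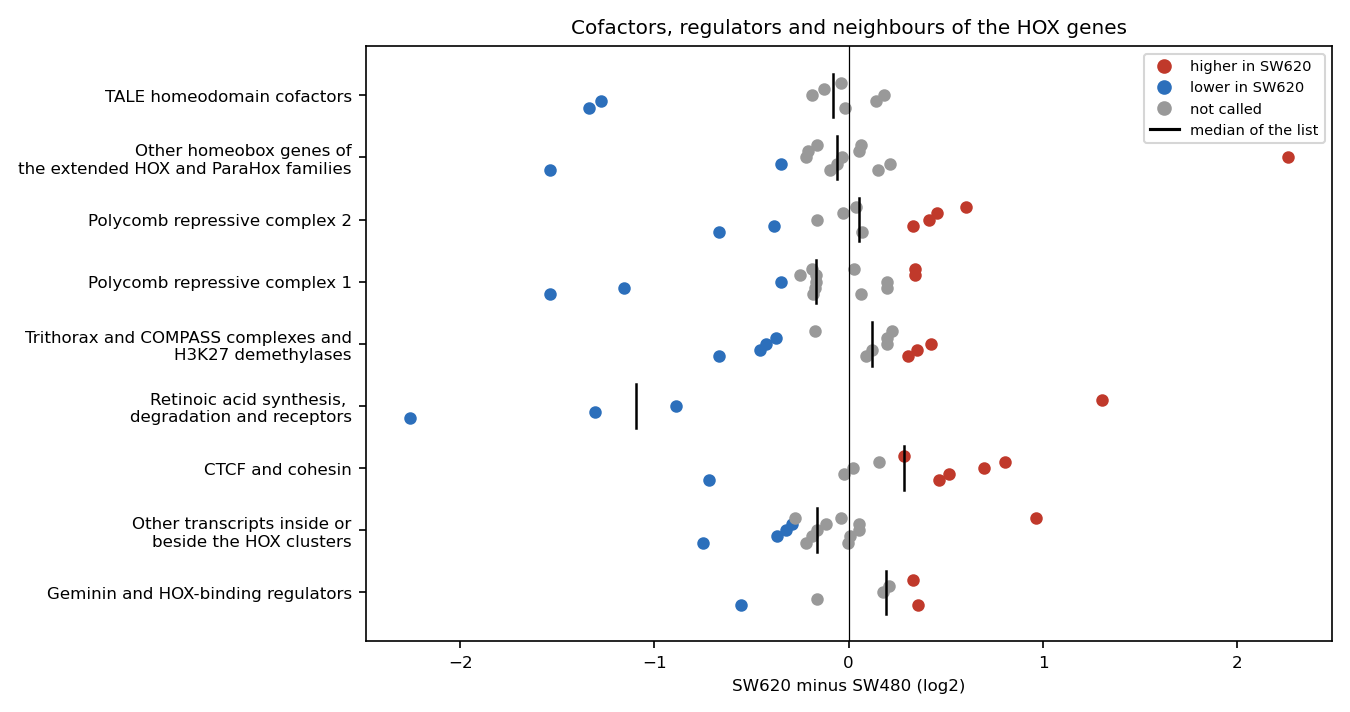
Each point is a measured gene of 9 lists linked to the HOX clusters (rows), with its difference SW620 minus SW480 (log2) on the horizontal axis, coloured by its call, and a bar at the median of the list. CRABP2 at -2.26 and MEOX2 at 2.26 lie farthest out, and every list except that of TALE cofactors holds calls in both directions.

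Values of the whole table ran from 1.99 to 13.9 on the log2 scale, with array medians between 4.04 and 4.07, and arrays correlated across features with r from 0.988 to 0.992 within a line and from 0.963 to 0.965 between lines. As a check of the labelled tissue, EPCAM, KRT8, KRT18, KRT19 and VIL1 lay above the median feature in both lines, whereas KRT20 and CDX1 lay below it in both. CDX2 lay above it in both as well (4.68 in SW620, 6.22 in SW480). Of 8 measured epithelial markers 3 were higher and 1, CDX2, was lower. Endothelial markers (4 measured) were all below the median feature in both lines with none called. Of 4 leukocyte markers 2 were higher, LCP1 by 25.1-fold (9.21 in SW620, 4.56 in SW480) and CD68 by 1.35-fold, and LAPTM5 was 1.33-fold lower, with CD14 below the median feature, and of 2 fibroblast markers LUM was higher (7.95 in SW620, 4.73 in SW480) and DCN was below the 25th percentile feature. The labels name cultures of the cell lines and no other cells, and the part of other cell types in the HOX differences was not tested.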

How the data were processed

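Total RNA of spheroid cultures of SW620 and SW480 (6 samples) was hybridised to Affymetrix whole-transcript arrays. The values the authors deposited are log2 signals of each feature on each array, for which the submitters' processing notes name RMA and Partek, without version or settings. Base 2 was inferred, since no source states it. RMA's background step can understate folds of dim genes. Of 53616 features 16098 had exactly 1 gene symbol in the platform annotation, and all of these matched a human gene table (GRCh38.p14), used for names and gene order only. For the 779 genes with several features the one with the highest mean over 6 arrays stood for the gene.

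The difference SW620 minus SW480 was tested two-sided in limma (version 3.58.1, R version 4.3.3, lmFit and eBayes) without covariates or filter, with Benjamini-Hochberg adjustment over 14884 genes and a threshold of 0.05. The fit was tested on simulated data. The number of arrays, 3 per line, limits the precision. Members and lists were chosen with earlier results of these data known. From each list up to 4 called genes with the largest difference are named, and others were named after their values were seen. Lists were described by counts and medians. Alternatives were normalizations, centrings, filters, variance models, feature summaries, thresholds, the replicate block and leaving out each array.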

Additional observations from a re-analysis of the deposited data

How the results depend on the processing

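Of the 20 HOX calls none changed direction under any alternative run. Repeated quantile normalization, cyclic loess, centring on the median, the trended and robust variance, the mean of features, all features tested and the 25th percentile filter kept the same 20. Centring on the 75th percentile feature added HOXD8. Keeping genes above the median feature left 25 members tested and 18 called, without HOXA-AS3 and HOXC13, which were no longer tested. The members' median was then -0.40, and -0.31 above the 25th percentile feature, with fewer members in it. Tested against 1.2-fold, 11 HOX genes were called (9 lower), 2465 genes in all, 20 linked genes in place of 41 and 5 of 24 flanking genes in place of 13. At a minimum of 2-fold the counts were 3 HOX genes (3 lower, 0 higher), 904 genes, 9 linked genes and 0 flanking genes, beside 13 flanking genes in limma at an adjusted p below 0.05. Without single arrays, 19 to 21 HOX genes were called (15 to 18 lower, 3 to 4 higher), the members' median was -0.29 to -0.22, and 4590 to 4984 genes, 37 to 42 linked genes and 11 to 14 flanking genes passed. Same-numbered replicates did not deviate together (correlations -0.023 to -0.0089), so these values give no sign that the numbers pair arrays. The replicate block gave the same 20 HOX calls (17 lower, 3 higher) and 5215 genes. Low signal limits the HOXD members, of which 1 of 10 had means above the median feature in both lines.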

Other observations

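Some genes that flank the clusters differed as well, by less than 2-fold. Of the 24 nearest measured protein-coding genes, 3 on each side of each cluster, 8 were lower in SW620, 5 were higher and 11 were not called in limma's test. In that test 35.6% of all genes were called. All flanking genes but EVX1 and GIP lay above the median feature in both lines. Among genes brighter than that feature 49.8% were called, close to the share of the flanking genes. Next to HOXA, 4 of 6 were lower and 0 higher, among them CBX3 (-0.48, adjusted p = 0.00214) and TAX1BP1 (-0.51, adjusted p = 0.000282). Over all genes 19.5% were lower, and 27.4% of the brighter genes were, so a count over 6 genes says little. The HOXB cluster was flanked by SKAP1, an adaptor of T cell signalling, which averaged 8.50 ± 0.054 in SW620 and 7.53 ± 0.024 in SW480 (SD, n = 3 each) and was 1.95-fold higher (0.96, limma adjusted p = 7.39e-07), while HOXB2 and HOXB3 at that end of the cluster were lower. PRAC1, between HOXB9 and HOXB13, differed by -0.0017 (adjusted p = 0.994). Beside HOXC, CBX5, which encodes the heterochromatin protein HP1 alpha, was 1.80-fold higher (0.85, adjusted p = 2.11e-06) and HNRNPA1 1.39-fold higher, both beyond SMUG1, the nearest gene on the HOXC4 side, which differed by -0.12 and was not called. Beside HOXD, 1 of 6 was called, NFE2L2 (-0.57, adjusted p = 0.000261), and EVX2, next to HOXD13, differed by 0.051.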
